A study of Mus musculus with 6 samples.

Results

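The proteasome genes were described in maps of open chromatin from mouse pancreatic islets. Members were the protein-coding genes of the mouse assembly GRCm38 whose symbol starts with Psma, Psmb, Psmc, Psmd, Psme, Psmf or Psmg, which gave 51 of 21887 genes. They comprised 15 genes of the core particle, 6 ATPases and 11 other subunits of the regulatory particle, 9 genes of immunoproteasomes and activators, 8 assembly factors or inhibitors, and 2 genes that carry such a symbol without encoding a subunit. A gene was counted as marked in a library when a called peak overlapped the 1000 bp on either side of its annotated start or end, called a gene end here.

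The proteasome is the protease of the cytosol and nucleus that degrades proteins tagged with ubiquitin. Its barrel-shaped core is built from rings of alpha and beta subunits, some of the beta subunits being the proteolytic ones, and a regulatory particle on top of the barrel recognises ubiquitin chains, removes them and unfolds the substrate with a ring of ATPases. Interferon replaces the proteolytic beta subunits by immunoproteasome forms and adds activator rings, and dedicated chaperones assemble the core and the base of the regulatory particle. Beta cells make large amounts of secretory protein, and the proteasome also degrades misfolded proteins that are exported from their endoplasmic reticulum.

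Islets of 16-week-old mice were profiled by ATAC-seq, which tags accessible DNA by transposition, with 50 islets a library. The 3 groups held 2 libraries each. Islets of βRicKO mice, whose beta cells lack the mTORC2 component Rictor, received an adenovirus with Acsl4, a synthetase that activates polyunsaturated fatty acids (βRicKO+Ad-Acsl4, called knockout-Acsl4). Islets of βRicKO mice received a GFP adenovirus (βRicKO+Ad-GFP, called knockout-GFP), and islets of wildtype controls received the same GFP virus (Con+Ad-GFP, called control-GFP). All islets were thus infected with an adenovirus, for 48 h ex vivo. Whole islets also hold cells other than beta cells, which keep Rictor by design. The sources used here name neither the driver of the deletion nor whether 2 libraries of a group stem from different mice.

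The peak lists differed widely in length. They held 525 and 5874 peaks in knockout-Acsl4 1 and 2, 2206 and 4257 in knockout-GFP 1 and 2, and 4442 and 1628 in control-GFP 1 and 2. The share of peaks at a gene end was 67.2% to 75.5% in knockout-GFP 1, knockout-GFP 2 and control-GFP 1, and 5.29% to 35.8% in the other 3 libraries, which therefore stand apart. Rictor carried no peak in any library, so the lists do not check the knockout. Acsl4 carried none in either knockout-Acsl4 library, 6 inside the gene in knockout-GFP 1 and 7 in control-GFP 1. The only libraries with peaks in Acsl4 were thus GFP libraries, so the lists do not check the added Acsl4 either. Why these libraries held them was not tested. Of 12 beta cell marker genes, Nkx6-1 and Mafa were marked, in knockout-GFP 2 and control-GFP 1, and the other 10, Ins1 and Ins2 among them, had no gene-end peak in any library. None of the 6 other endocrine, 5 acinar, 4 endothelial, 4 stromal or 6 immune markers was marked, and 1 of 4 ductal markers was, in knockout-GFP 2. Most markers of the tissue itself thus had no called peak, and a gene without a peak is not shown to be closed. Fewer open cells and less signal per cell cannot be told apart in these bulk libraries.

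Proteasome genes were marked most often in knockout-GFP 2 and control-GFP 1. Knockout-Acsl4 1 marked 0 of 51 members, which allows a share of up to 5.88% by a limit of 3 counts, or 6.98% by the exact interval used for the other libraries, against a background of 1.02% over all protein-coding genes. Knockout-Acsl4 2 marked 2 members, or 3.92% (95% exact Clopper-Pearson interval 0.478 to 13.5), against 1.58%. Knockout-GFP 1 marked 7, or 13.7% (5.70 to 26.3), against 8.20% of all genes. In knockout-GFP 2 the count was 16, or 31.4% (19.1 to 45.9), against 17.3%, the only library in which the interval lay above the background. Control-GFP 1 marked 12 members, or 23.5% (12.8 to 37.5), against 16.7%, and control-GFP 2 marked 1, or 1.96% (0.0496 to 10.4), against 2.00%. The intervals cover counting error only. The counts of knockout-GFP, 7 and 16, overlapped those of control-GFP, 12 and 1, and those of knockout-Acsl4, 0 and 2, lay below both knockout-GFP counts but not below both control-GFP counts.

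**Figure D1:**
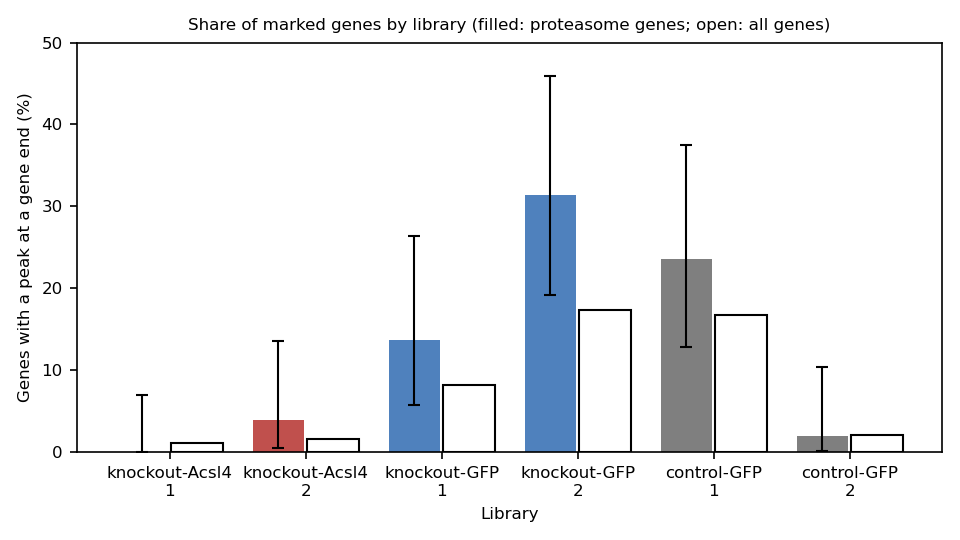
Share of marked genes (%) in each library. Filled bars are the 51 proteasome genes with exact 95% intervals, open bars all 21887 protein-coding genes; the filled bar is 31.4% in knockout-GFP 2 and 23.5% in control-GFP 1, and at most 3.92% in the 2 knockout-Acsl4 libraries and control-GFP 2.

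Over all 6 libraries, 22 of 51 members (43.1%) were marked at least once, against 24.5% of all genes. At least 2 libraries marked 11 members (21.6%, against 13.9%), and at least 3 marked 5 (9.80%, against 6.52%). No member was marked in 4 or more libraries, which 1.62% of all genes were. The 5 members marked in 3 libraries were the core genes Psma1 and Psma2, the ATPase Psmc4, the lid subunit Psmd8 and the activator subunit Psme2. For Psmd8 and Psme2 the 3 peaks had no interval in common. The 29 members with no gene-end peak included Psmb5 and Psmb7, which encode proteolytic core subunits, the ubiquitin receptor Psmd4, the scaffold subunit Psmd2, and Psmb8, Psmb10 and Psmb11.

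**Figure D2:**
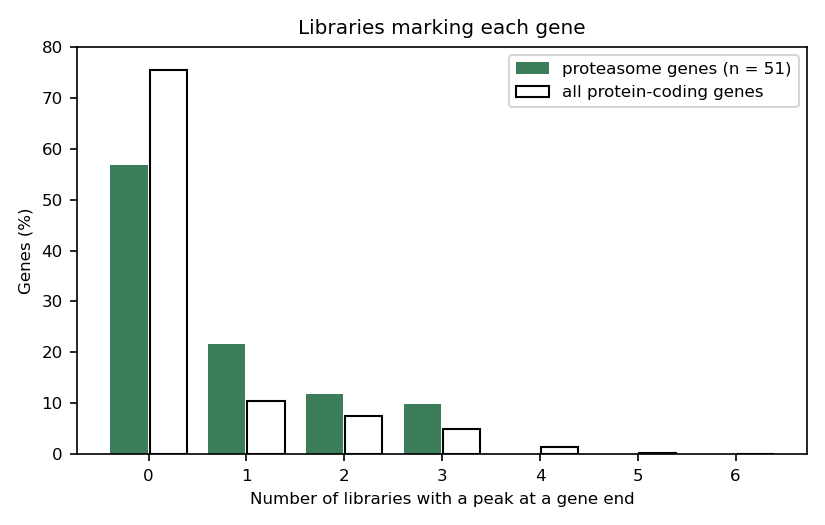
Share of genes (%) by the number of libraries, 0 to 6, with a peak at a gene end. Green bars are the 51 proteasome genes and open bars all protein-coding genes; 56.9% of proteasome genes and 75.5% of all genes were in no library, and no proteasome gene was in more than 3.

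The promoters of those 5 genes show the DNA that most of their peaks covered. They are given from RefSeq in GRCm38.p6, 5′ to 3′ on the strand of the gene, from 250 bases before to 50 bases after the annotated start, with matches of any of 8 searched motifs in capitals.
Psma1: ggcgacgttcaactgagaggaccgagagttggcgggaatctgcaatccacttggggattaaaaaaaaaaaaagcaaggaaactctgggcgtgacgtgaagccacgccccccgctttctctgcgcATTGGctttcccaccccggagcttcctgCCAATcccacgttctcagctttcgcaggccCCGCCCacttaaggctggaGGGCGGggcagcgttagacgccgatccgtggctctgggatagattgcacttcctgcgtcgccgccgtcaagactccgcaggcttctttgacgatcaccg
Psma2: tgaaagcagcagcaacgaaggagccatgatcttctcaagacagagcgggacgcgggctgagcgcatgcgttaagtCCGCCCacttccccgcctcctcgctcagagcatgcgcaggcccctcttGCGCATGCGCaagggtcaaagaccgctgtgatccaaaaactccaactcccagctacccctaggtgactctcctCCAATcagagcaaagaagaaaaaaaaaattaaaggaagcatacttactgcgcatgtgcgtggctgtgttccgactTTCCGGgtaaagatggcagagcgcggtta
Psmc4: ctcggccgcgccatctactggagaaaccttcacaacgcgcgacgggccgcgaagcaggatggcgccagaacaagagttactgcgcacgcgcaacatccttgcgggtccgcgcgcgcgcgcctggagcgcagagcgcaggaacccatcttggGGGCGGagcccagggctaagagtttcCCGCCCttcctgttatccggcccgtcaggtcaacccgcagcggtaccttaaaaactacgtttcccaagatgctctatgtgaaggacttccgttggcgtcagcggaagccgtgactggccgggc
Psmd8: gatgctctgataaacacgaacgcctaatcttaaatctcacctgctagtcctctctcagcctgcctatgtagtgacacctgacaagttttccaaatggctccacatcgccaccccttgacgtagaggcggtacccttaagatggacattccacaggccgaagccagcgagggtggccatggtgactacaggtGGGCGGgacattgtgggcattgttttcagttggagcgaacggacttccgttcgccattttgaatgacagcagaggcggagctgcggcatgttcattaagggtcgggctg
Psme2: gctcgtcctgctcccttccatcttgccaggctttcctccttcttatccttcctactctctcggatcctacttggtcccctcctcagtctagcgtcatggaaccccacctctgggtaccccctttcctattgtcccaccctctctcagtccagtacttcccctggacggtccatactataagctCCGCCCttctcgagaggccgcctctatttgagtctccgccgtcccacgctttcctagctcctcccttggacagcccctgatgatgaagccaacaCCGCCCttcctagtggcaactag
These windows are chr7:114276067-114276366 (minus strand), chr13:14612992-14613291 (plus), chr7:28050043-28050342 (minus), chr7:29180624-29180923 (minus) and chr14:55591052-55591351 (minus). For Psme2, which has 2 promoters in the table, the one at the gene's annotated end is shown.

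Core particle genes were marked in knockout-GFP 1, knockout-GFP 2 and control-GFP 1 only. The counts were 2, 6 and 4 of 15, against 8.20%, 17.3% and 16.7% of all genes, and the 6 genes of knockout-GFP 2 included all of the others. Psma2, an alpha ring subunit (chromosome 13, 14613242 to 14625673), had the highest-ranked peaks of the class. Its score, read as a −log10 q-value, was 8.06 in knockout-GFP 1, 7.21 in knockout-GFP 2 and 11.0 in control-GFP 1, with no peak in the other 3 libraries. Scores cannot be compared between lists, so each peak was also ranked within its library, which put the Psma2 peaks at percentiles 85.0, 58.7 and 80.1. All 3 peaks covered the Psma2 start and overlapped one another by 243 to 305 bp. They also lay at the end of the neighbour Mrpl32, a mitochondrial ribosomal protein gene, 205 bp away, so they cannot be assigned to either gene alone. In the printed promoter, the palindromic motif of the transcription factor NRF1, at positions -127 to -118 from the start, was covered by the peak in all 3 libraries, as were a CCAAT box, a GC box and an ETS match. NRF1 here is not the proteasome gene regulator NFE2L1, which has another motif, TGACNNNGC.

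Psma1, another alpha subunit (chromosome 7, 114264550 to 114276116), has no end of another protein-coding gene within 1000 bp. Its peaks are thus not shared with another such gene, and other transcripts were not examined. Its peaks scored 3.78 in knockout-GFP 1, 5.82 in knockout-GFP 2 and 4.85 in control-GFP 1, at percentiles 41.5, 45.7 and 40.7. Each covered the start, and they overlapped by 137 to 167 bp. The CCAAT box at positions -98 to -94 and both GC boxes of the printed promoter lay inside all 3 peaks. The same gene therefore had a middle-ranked peak in a library of each GFP group, with no peak in either knockout-Acsl4 library or in control-GFP 2.

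Psma5, an alpha subunit, and Psmb2, a beta subunit without proteolytic activity, were each marked in knockout-GFP 2 and control-GFP 1. For Psma5 the scores were 4.93 in knockout-GFP 2 and 5.84 in control-GFP 1, and the peaks overlapped by 183 bp just inside the gene. Psmb2 had 3.14 in knockout-GFP 2 and 3.75 in control-GFP 1, at percentiles 15.2 and 26.5. Knockout-GFP 2 alone marked Psmb3, a structural beta subunit (4.89), and Psmb6, which encodes the caspase-like proteolytic subunit (4.89). The Psmb6 peak, 108 bp wide, covered the start, whereas that of Psmb3 lay 42 bp upstream of it and also at the end of Pcgf2, a polycomb gene. Psmb6 was the only gene of a proteolytic subunit of the constitutive core with a gene-end peak. Psma3, Psma4, Psma6, Psma7, the testis form Psma8, Psmb1, Psmb4, Psmb5 and Psmb7 had none.

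In 2 further core genes a peak sat at an internal start, outside the gene-end windows. Psma6 has an annotated start at 55398825 on chromosome 12, 14603 bp inside its outermost boundary. A peak covered it in knockout-GFP 2 (55398748 to 55398891, score 3.98) and in control-GFP 1 (55398713 to 55398849, score 2.18). Psma3 has its RefSeq start at 70974623 on chromosome 12, 5340 bp inside the gene boundary, and knockout-GFP 1 had a peak over it (70974605 to 70974960, score 3.66). Both were noticed after the values were seen. With such promoters included, 24 members (47.1%) were marked at least once, against 26.1% of all genes.

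The regulatory particle was marked in 9 of 17 genes over the 6 libraries (52.9%), against 24.5% of all genes. By library it had 0 and 2 genes in knockout-Acsl4 1 and 2 (background 1.02% and 1.58%), 2 and 5 in knockout-GFP 1 and 2 (8.20% and 17.3%), and 5 and 1 in control-GFP 1 and 2 (16.7% and 2.00%). Of the 6 ATPases, which form the ring that unfolds substrates, 4 were marked. Psmc4 (chromosome 7, 28041702 to 28050092) scored 2.45 in knockout-GFP 1, 7.77 in knockout-GFP 2 and 2.01 in control-GFP 1. These peaks ranked at percentiles 16.9 and 63.2 in knockout-GFP 1 and 2 and 3.86 in control-GFP 1, and all 3 covered the start and overlapped by 126 to 179 bp. Both GC boxes in its printed promoter were inside all 3 peaks.

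Psmc3 was the ATPase gene with a peak in the knockout-Acsl4 group. The score was 2.35 in knockout-Acsl4 2 and 2.82 in knockout-GFP 1, and the peaks overlapped by 124 bp at the gene end. No peak was called there in knockout-GFP 2 or in either control-GFP library. Psmc6 had a peak of score 3.72 over its start in knockout-GFP 2 and one of 10.4 in control-GFP 1 that ended 102 bp upstream of it, and the peaks overlapped by 91 bp. Psmc5 was marked in knockout-GFP 2 alone (3.14), by a peak 84 bp from its end that also lay at Ftsj3, an RNA methyltransferase gene. Psmc1 and Psmc2 had no gene-end peak.

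Among the other regulatory particle subunits, Psmd8 was the only one marked more than once. Psmd8, a subunit of the lid (chromosome 7, 29174187 to 29180673), scored 1.54 in knockout-Acsl4 2, 7.68 in knockout-GFP 2 and 14.3 in control-GFP 1. The last was the highest-ranked peak of any member, at percentile 87.4. The peaks of knockout-GFP 2 and control-GFP 1 covered the start and overlapped by 211 bp, and both contained the GC box of the printed promoter. The peak of knockout-Acsl4 2 was a different region, 164 bp from that of knockout-GFP 2 and 254 bp upstream of the start, and covered none of the printed bases. The neighbour Catsperg1, a sperm calcium channel subunit, lies 249 bp from Psmd8 and shared all 3 peaks. None of them, that of knockout-Acsl4 2 included, can be assigned to Psmd8 alone, and the 3 libraries share the mark but not the region.

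Psmd3, a lid subunit, was marked in knockout-GFP 2 alone (score 10.6, percentile 78.4). Control-GFP 1 alone marked Psmd1, a scaffold subunit of the base (3.28), and Psmd14, the deubiquitinase that removes ubiquitin chains from substrates (5.94), each by a peak over the start. The single member marked in control-GFP 2 was Psmd13, another lid subunit. Its peak (score 2.54) lay 135 bp upstream of the start, beside Sirt3, a mitochondrial deacetylase gene whose end is 85 bp from that of Psmd13. Psmd2, Psmd4, Psmd6, Psmd7, Psmd11 and Psmd12 had no gene-end peak.

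**Figure D3:**
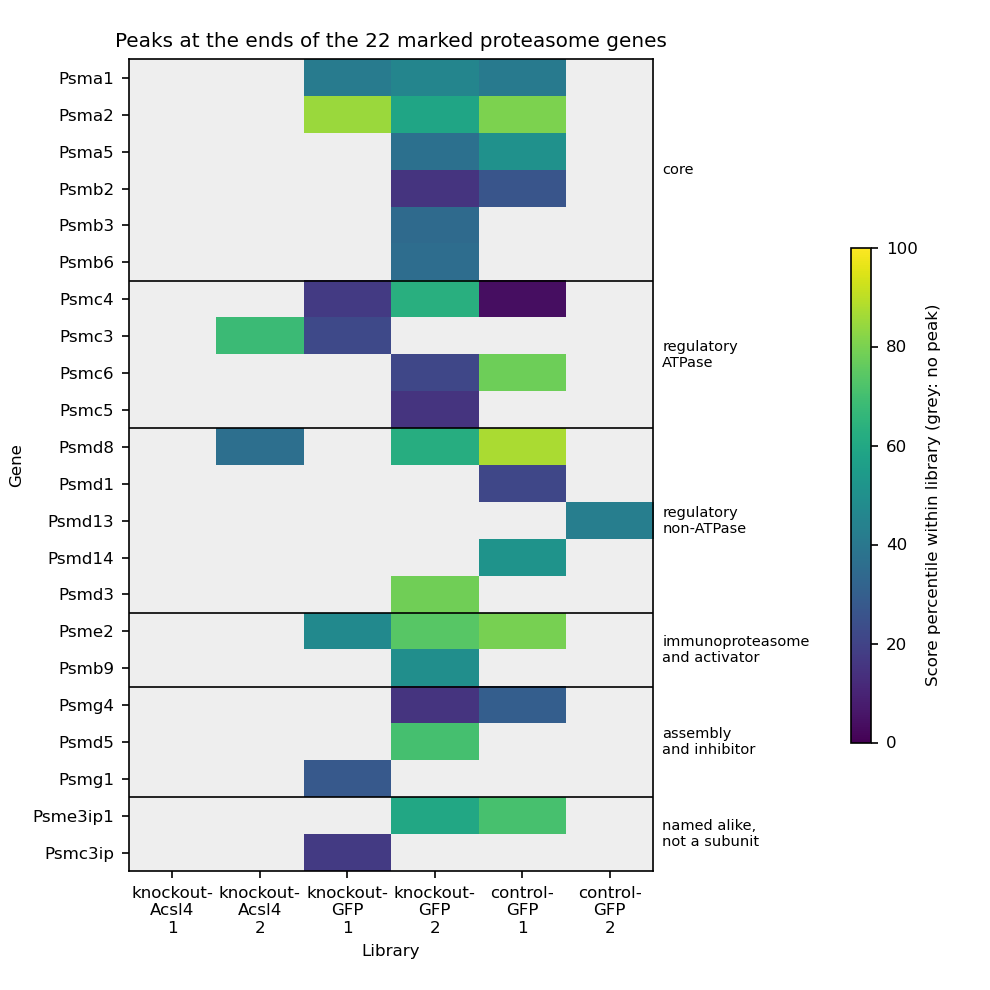
Score percentile of the gene-end peak within its own library (colour, 0 to 100) for the 22 marked genes, by class, in the 6 libraries; grey means no peak. The columns of knockout-GFP 1, knockout-GFP 2 and control-GFP 1 hold peaks for 7, 16 and 12 of the 22 genes. The 2 knockout-Acsl4 columns and that of control-GFP 2 hold 0, 2 and 1.

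Immunoproteasome and activator genes were marked in 2 of 9 cases (22.2%), close to the 24.5% of all genes marked in any library. Psme2 encodes a subunit of the interferon-inducible activator ring (chromosome 14, 55587440 to 55591101). Its scores were 4.08 in knockout-GFP 1, 9.59 in knockout-GFP 2 and 10.9 in control-GFP 1. The peaks of knockout-GFP 2 and control-GFP 1 shared 139 bp over the start, with a GC box of the printed promoter inside both. The peak of knockout-GFP 1 was a separate region 427 bp upstream, 350 bp from that of knockout-GFP 2. The nearest end of the neighbour Rnf31, a linear ubiquitin ligase gene, is 612 bp away and all 3 peaks lay at it as well, so the 3 libraries share the mark but not the region.

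Psmb9, the immunoproteasome form of Psmb6, was marked in knockout-GFP 2 alone (score 6.19, percentile 49.6). The peak, 104 bp wide at 34187393 to 34187496 on chromosome 17, lay in the 226 bp between the ends of Psmb9 and Tap1, the peptide transporter gene. Psmb8, Psmb10, the thymus form Psmb11, Psme1, Psme2b, the nuclear activator Psme3 and Psme4 had no gene-end peak. Immune cell markers (Ptprc, Cd68, Lyz2, Cd74, Csf1r and Spi1) were at 0 of 6 in every library, including those with the Psme2 and Psmb9 peaks. Only 2 of 12 beta cell markers had a gene-end peak either, so absent marker peaks do not show which cells were present. The cells behind the Psme2 and Psmb9 peaks were not tested.

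Assembly factors were marked in 3 of 8 cases (37.5%), against 24.5% of all genes. Psmg4, a chaperone of core assembly, had scores of 3.14 in knockout-GFP 2 and 3.92 in control-GFP 1, from peaks that began at the same base and overlapped by 236 bp. Knockout-GFP 1 alone marked Psmg1, another core chaperone (3.04), whose promoter also holds the NRF1 motif. Psmd5, a chaperone of the regulatory particle base, was marked in knockout-GFP 2 alone (8.96, percentile 70.7). Psmd9, Psmd10, Psmg2, Psmg3 and the inhibitor gene Psmf1 had no gene-end peak. Of the 2 genes that are not subunits, Psme3ip1, whose product binds the activator Psme3, scored 7.34 in knockout-GFP 2 and 8.71 in control-GFP 1, from peaks shared with the end of Rspry1. Psmc3ip, a meiotic recombination factor, scored 2.45 in knockout-GFP 1 only, from a peak shared with Retreg3. Without these 2 genes, knockout-Acsl4 1 and 2 marked 0 and 2 of 49 (0% and 4.08%), against 1.02% and 1.58% of all genes. In knockout-GFP 1 and 2 the counts were 6 and 15 (12.2% and 30.6%), against 8.20% and 17.3%. In control-GFP 1 and 2 they were 11 and 1 (22.4% and 2.04%), against 16.7% and 2.00%.

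Peaks lay at the 5′ ends. A strand was known for 43 members, and all 33 of their peaks lay at the 5′ end of the gene, against 95.8% of gene and peak pairs over all genes with a strand. The start itself was covered by 23 of 33 (69.7%), against 52.0% of such pairs over all libraries pooled. By library that share was 52.9% to 57.1% in knockout-GFP 1, knockout-GFP 2 and control-GFP 1, which held most member peaks. In the others it was 12.0% to 31.5%, so the pooled share has another mix of libraries. The middle of the peak lay between -514 and 149 bp from the start, with a median of -36.0 bp, negative values being upstream. Peak width ran from 104 to 456 bp. The farthest gene-end peak from a start was that of Psme2 in knockout-GFP 1, at 427 bp, and the nearest peak to a gene end of an unmarked member was 3032 bp away, at Psmb7, so no member lay near the limit of the window. Where 2 libraries marked the same member, their peaks overlapped in 17 of 21 pairs, and the 4 pairs that did not were those with the Psmd8 peak of knockout-Acsl4 2 and the Psme2 peak of knockout-GFP 1.

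**Figure D4:**
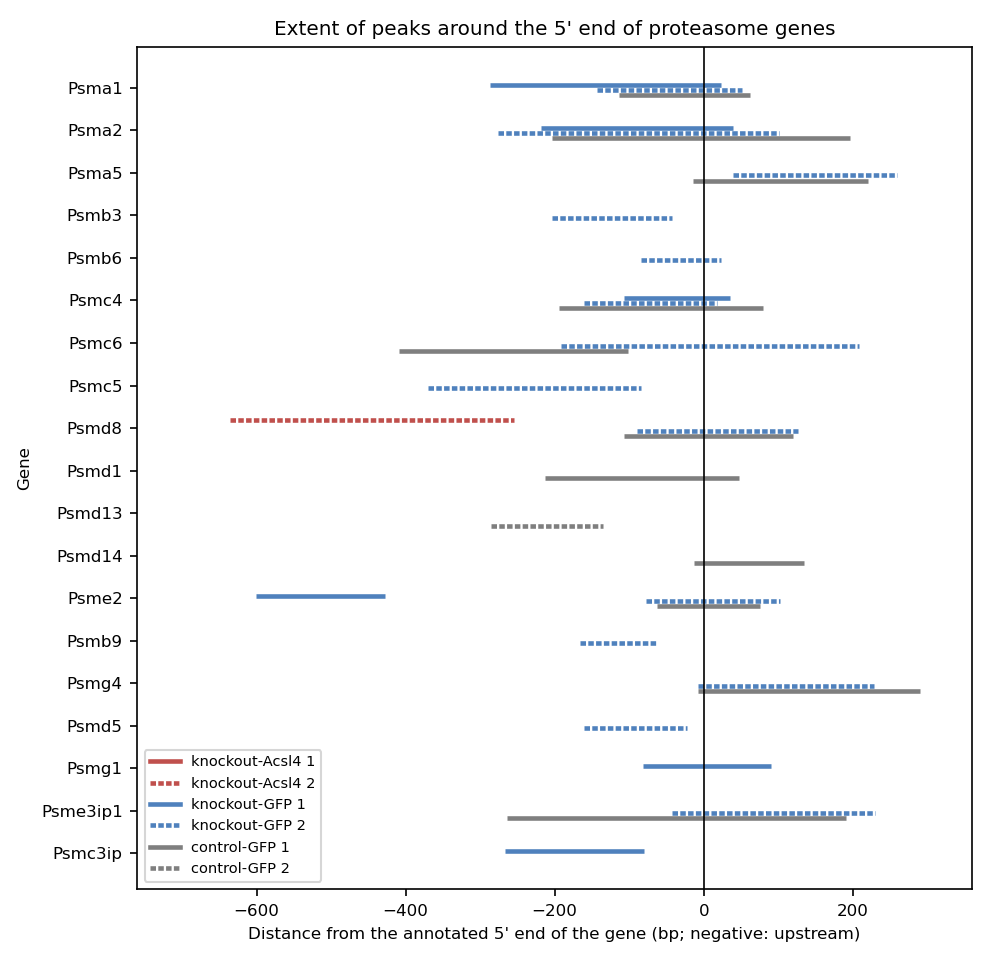
Extent of each peak relative to the annotated 5′ end of the gene (bp, negative upstream) for the 19 marked genes with a known strand. Lines are peaks, coloured by group and solid or dashed for library 1 or 2; most cross 0, and the peaks of Psmd8 in knockout-Acsl4 2 and Psme2 in knockout-GFP 1 lie apart upstream.

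Most member peaks ranked below the median gene-end peak of their library. In knockout-GFP 1 the median percentile of member peaks was 28.1, against 53.2 for all gene-end peaks of that library. It was 47.7 against 51.9 in knockout-GFP 2, and 51.1 against 54.0 in control-GFP 1. Over the 6 libraries, 14 of 38 member peaks ranked above the median gene-end peak of their library. When each list was cut to its best 525 peaks, members were marked by 1 peak, that of Psma2 in knockout-GFP 1. In that setting knockout-GFP 2 marked 0 of 51 members against 1.92% of all genes, and control-GFP 1 marked 0 against 1.91%. Every other member peak thus ranked below the best 525 of its list.

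**Figure D5:**
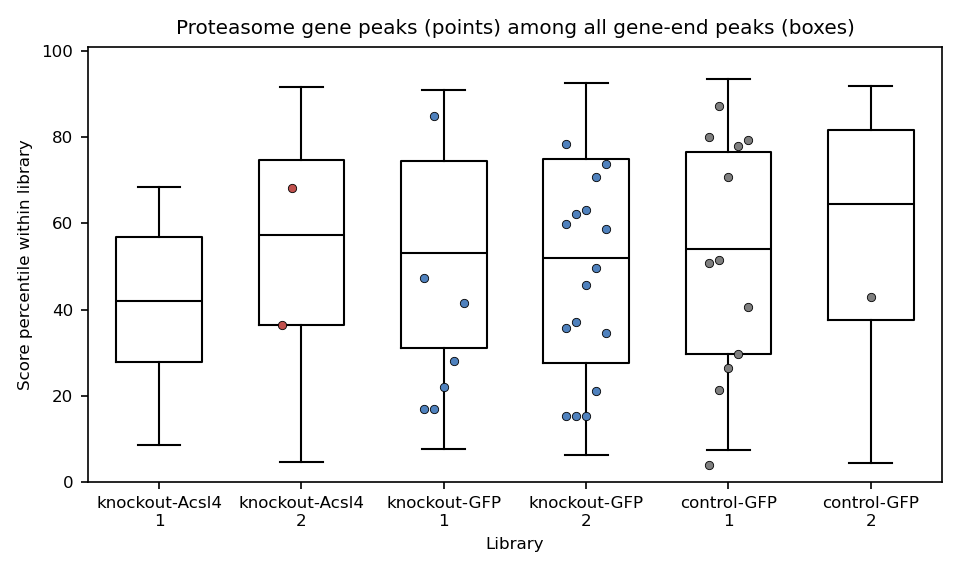
Score percentile within the library (0 to 100) of proteasome gene peaks (points, coloured by group) and of all gene-end peaks (box from the lower to the upper quartile, line at the median, whiskers from the 5th to the 95th percentile). The points of knockout-GFP 1 have a median of 28.1, below the box line at 53.2, and no point passes 87.4.

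Short distances to neighbouring genes were common among the members. Another gene end lay within 1000 bp for 21 of 51 members (41.2%), against 24.8% of all genes. In knockout-GFP 2, 8 of these 21 were marked (38.1%), against 30.6% of all genes with such a neighbour. Of the 30 members without one, 8 were marked (26.7%), against 12.9%. The matching shares in control-GFP 1 were 23.8% against 27.4% with a neighbour and 23.3% against 13.2% without. Among the 22 marked members, 9 (40.9%) had a peak that also lay at the end of another gene, against 31.5% of all marked genes. Members were also shorter than average, with a median length of 11600 bp against 17200 bp.

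Promoter sequence was compared over the 43 members in the promoter table and 17492 promoters of protein-coding genes. The median ratio of observed to expected CpG dinucleotides was 0.763 in members and 0.577 in all genes, and 69.8% of member promoters exceeded 0.6, against 48.4%. Marked members had a median ratio of 0.799 and unmarked members 0.627. Over all genes the medians were 0.823 in marked and 0.399 in unmarked genes, a difference in the same direction and wider than among the members. Psmb10, Psmb11 and Psme2b, all unmarked, had the ratios 0.192, 0.165 and 0.0904, whereas the unmarked core gene Psmb5 had 0.999.

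Motifs were counted on both strands as exact letters, so a match is not a bound site. The ETS core CCGGAA was present in 21 of 43 member promoters (48.8%), against 19.1% of all promoters and 30.8% of those of marked genes. It was in 42.1% of marked and 54.2% of unmarked members. The antioxidant response element TGACNNNGC, the motif of the proteasome gene regulators NFE2L1 and NFE2L2, was in 6 members (14.0%), against 13.1%, and these were Psmb5, Psmb6, Psmc6, Psmd12, Psmd9 and Psme4. The GC box GGGCGG was in 55.8% of members against 46.3%, and CCAAT in 37.2% against 39.2%. The NRF1 motif was in 2 members (4.65%, against 1.33%), the YY1 motif in 1 (2.33%, against 1.27%), and TATAAA in 4 (9.30%, against 13.3%). The interferon response element was in 5 members (11.6%, against 3.40%), of which Psme1 is the only one in the immunoproteasome and activator class. CCAAT and GGGCGG do not overlap the other matches in the printed promoters.

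Loss of Rictor was examined by setting knockout-GFP against control-GFP. No member was marked in both knockout-GFP libraries and neither control-GFP library, a pattern held by 1.04% of all genes, and none had the reverse pattern, held by 0.0914%. The 4 members marked in both knockout-GFP libraries, Psmc4, Psma1, Psma2 and Psme2, were all marked in control-GFP 1 as well, and none in control-GFP 2. Without control-GFP 1 these 4 became knockout-GFP-only (background 5.60%), whereas without control-GFP 2 the count stayed 0 (background 1.08%). Without knockout-GFP 1 the count was 6 (5.54%) and without knockout-GFP 2 it was 3 (1.94%). The reverse count was 1 without control-GFP 1 (0.338% of all genes) and 2 without control-GFP 2 (4.40%). Of the 12 members of control-GFP 1, 10 (83.3%) were in knockout-GFP 2, which is 62.5% of the 16 there. Over all genes these shares were 69.6% and 67.1%. With 2 libraries a group, the smallest two-sided exact permutation p is 0.333, so no test of a member was made.

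Added Acsl4 was examined by setting knockout-Acsl4 against knockout-GFP, with the groups taken from the sample labels alone. Psmc4, Psma1, Psma2 and Psme2, marked by each knockout-GFP list, had no mark in knockout-Acsl4 (7.84% of members, against a background of 5.79%). For Psme2 the peaks of knockout-GFP 1 and 2 were separate regions, 350 bp apart. Every member marked in both knockout-GFP libraries thus had the pattern, as did 87.6% of all genes so marked. No member had the reverse pattern, and 0.00914% of all genes did. The knockout-Acsl4 lists marked 224 and 345 genes in all, against 1795 and 3788 in the knockout-GFP lists. With every list cut to its best 525 peaks the count was 0 (0.475% of all genes), and with the better 50% of each list it was 1, Psma2 (2.97%). When a peak had to lie over the 300 bp promoter window, it was 3, Psmc4, Psma1 and Psma2 (4.66%). Only 43 members and 17492 genes have such a window. The 4.66% is a share of all 21887 genes and so understates the matching background. Without knockout-GFP 1 the count was 15 (15.9% of all genes), and without knockout-GFP 2 it was 6 (7.31%). The count was 4 without knockout-Acsl4 1 (6.39%) and 4 without knockout-Acsl4 2 (5.98%).

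Between knockout-Acsl4 and control-GFP no member had either pattern. Background shares were 0.00457% for knockout-Acsl4-only and 1.32% for control-GFP-only genes. No member was marked in both libraries of either group. The control-GFP-only count was 11 without control-GFP 2 (15.3% of all genes) and 1 without control-GFP 1 (1.71%), and the knockout-Acsl4-only count was 1, Psmc3, without knockout-Acsl4 1 (1.06%). All 3 comparisons use the same libraries in pairs, so their counts are not independent.

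Genes that work with the proteasome under other symbols were marked mainly in the same 3 libraries. Of 35 such genes, 0 and 1 were marked in knockout-Acsl4 1 and 2 (2.86% in the second), against 1.02% and 1.58% of all genes. In knockout-GFP 1 and 2 the counts were 5 and 16 (14.3% and 45.7%), against 8.20% and 17.3%. In control-GFP 1 and 2 they were 13 and 1 (37.1% and 2.86%), against 16.7% and 2.00%. Rad23b, which delivers ubiquitinated proteins to the proteasome, was marked in 4 libraries, with scores of 8.14 and 7.97 in knockout-GFP 1 and 2 and 10.8 and 3.06 in control-GFP 1 and 2. Uchl5, a deubiquitinase of the regulatory particle, scored 3.17 and 9.35 in knockout-GFP 1 and 2 and 11.2 in control-GFP 1. Uba6, an E1 enzyme that activates ubiquitin, scored 3.36 and 9.24 in knockout-GFP 1 and 2 and 24.7 in control-GFP 1, a rank at percentile 95.9 that no Psm gene reached. The ubiquitin receptor Adrm1 was marked in knockout-GFP 2 alone (16.5). Pomp, the maturation factor of the core, had no gene-end peak.

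Some regulators of proteasome gene transcription were marked. Nfe2l1, which raises proteasome gene transcription when the proteasome is inhibited, had peaks at percentiles 44.8 and 76.3 in knockout-GFP 1 and 2 and 34.1 in control-GFP 1. Nfe2l2, the regulator of antioxidant genes, scored 4.46 in knockout-GFP 2 and 12.6 in control-GFP 1. Zfand5 was grouped with these regulators, but it encodes a zinc finger protein that binds the proteasome itself. It scored 2.15 in knockout-Acsl4 2, 9.03 in knockout-GFP 2 and 16.4 in control-GFP 1. Irf1 and Nlrc5, regulators of immunoproteasome genes, had no gene-end peak in any library. Of 4 peptide loading genes, Tap1 was marked in knockout-GFP 2 and B2m in control-GFP 1. In this list Txnl1, a thioredoxin-like partner of the regulatory particle, was the single gene marked in both knockout-GFP libraries (4.72 and 2.31) and neither control-GFP library, and no gene had the reverse pattern. Over all genes that pattern was held by 1.04%. Against knockout-Acsl4, 5 of the 35 genes (14.3%) were knockout-GFP-only, against 5.79% of all genes.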

How the data were processed

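The 6 deposited peak lists, one per library, give chromosome, start, end, name and a value. That deposited value is taken to be a q-value on the −log10 scale from peak calling by the authors, since each list stops near 1.30, which equals a q-value of 0.05, though no header says so. The tools named, per the submitters' processing notes, are MACS2 2.1.1, BWA 0.7.10, Trimmomatic, SAMtools and FastQC, with no roles. Their builds are hg38 and GRCh38, both human. The samples are mouse and the peaks sit on mouse 5′ ends, so positions were read as GRCm38 and printed 1-based. Depth in reads is unknown here, and the length of each peak list was used to describe a library.

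A gene was marked when a peak overlapped 1000 bp around either end by at least 1 bp, for 21887 protein-coding RefSeq genes of chromosomes 1 to 19, X and Y. Strand and promoters came from the RefSeq promoter table; 8 members are not in it. Libraries are the replicates, members are not. No p-value was computed; shares have exact Clopper-Pearson 95% intervals. The marking step was checked on simulated peaks. Members, classes, lists and motifs were chosen with earlier results of these data known. Members named with values are those marked in 3 or more libraries, those with a group pattern and up to 4 per class of highest mean percentile; other marked members were added, and unmarked members are listed by class. Paaf1, on the list of partners, was not analysed here. Calculations used Python 3.11.15, pandas 2.3.3 and SciPy 1.17.1.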

Additional observations from a re-analysis of the deposited data

How the results depend on the processing

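Counts of marked members were the same with windows of 500 and 3000 bp and when the middle of the peak had to lie in the window. Shares over all genes moved, in knockout-Acsl4 2 from 1.58% to 1.05% with 500 bp and 3.13% with 3000 bp. Scoring only the 5′ end, for the 43 members with a strand, gave 1 member in knockout-Acsl4 2 (0.909% of all genes). A peak over a 300 bp promoter window, chosen after seeing the data, gave 0 there (0.448%). Both shares are over all 21887 genes. Only 17492 genes have a strand and could be marked in these settings, so the shares understate the matching background. Psmc3 has no strand in the promoter table. The better 50% of each list marked 1 member in knockout-Acsl4 2 (0.905% of all genes) and 1 and 7 in knockout-GFP 1 and 2 (4.50% and 9.19%). In control-GFP 1 and 2 it marked 7 and 0 (9.41% and 1.25%). It left 1 knockout-GFP-only member against knockout-Acsl4 (2.97%). Equal lists of 525 peaks marked 0 in knockout-Acsl4 2 (0.0868% of all genes) and 1 and 0 in knockout-GFP 1 and 2 (1.90% and 1.92%). They marked 0 in both control-GFP libraries (1.91% and 0.877%). They left 0 knockout-GFP-only members against knockout-Acsl4 (0.475%). Both settings hold fewer peaks by construction. Leaving out each library in turn gave 0 to 6 knockout-GFP-only members (1.08% to 5.60% of all genes) and 0 to 2 control-GFP-only members (0.123% to 4.40%) between those groups. Against knockout-Acsl4 there were 4 to 15 knockout-GFP-only members (5.98% to 15.9%) and 0 of the reverse (0.00914% to 0.991%). The last comparison had 0 to 1 knockout-Acsl4-only (0.00457% to 1.06%) and 0 to 11 control-GFP-only members (1.38% to 15.3%). The single library left is assumed to stand for its group. With same-numbered libraries paired as a replicate block, a pattern in both pairs is the group pattern itself, so the counts were 0 and 0, 0 and 4, and 0 and 0. The labels state no such pairing, and the bracketed part of the knockout-Acsl4 2 label carries another number. Short lists limit what absence of a peak can show.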
